A study of Mus musculus with 8 samples.

Results

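The genes described here carry the symbols of proteins of the cytosolic ribosome, or of close paralogs of them. They were taken as all probe sets whose platform annotation gives a single gene symbol beginning with Rpl or Rps followed by a digit or a p, without the S6 kinase genes (Rps6k), which share the prefix but are not ribosomal proteins. The rule found 34 genes, of 8252 genes with such a probe set, on 48 of 12488 probe sets. By symbol, 17 are named for the large (60S) and 17 for the small (40S) subunit. For each gene the probe set with the highest mean intensity was read. After a filter on dim signals (at least 2 arrays above an intensity of 362.7), 25 of the 34 genes could be tested, 12 named for the large and 13 for the small subunit. RefSeq lists 1 of the 34, Rps4l, as a transcribed pseudogene, so it is no ribosomal protein gene in that annotation. It is kept in all counts because the rule takes it, and it is 1 of the 25 tested. Rpl7l1, a paralog of Rpl7, is also among the 25, and whether it is part of the ribosome was not examined.

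Cytosolic ribosomes are built in the nucleolus from ribosomal RNA and ribosomal proteins, which are made in nearly matched amounts and taken up into the subunits together. Their mRNAs are among the most abundant of any cell, and in vertebrates most of them start with a terminal oligopyrimidine (TOP) tract, a C followed by a run of pyrimidines, through which the mTOR pathway controls how strongly they are translated. Dividing and growing cells hold more of them than most resting cells. Many of these genes have near-identical processed pseudogenes elsewhere in the genome, so a probe set can read more than the gene it is named for.

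RNA of mouse olfactory mucosa, the nasal lining with the olfactory sensory neurons, was hybridised to 8 single-colour arrays. Every animal had both olfactory bulbs removed, which deprives those neurons of their target. The groups of 2 arrays were C57BL/6 wild-type mice injected with carrier, C57BL/6 wild-type mice injected with the chemokine CCL3 (MIP-1α), mice labelled as Ccl3 knockout (Ccl3-/-) injected with carrier, and mice labelled as Ccl3 knockout injected with CCL3. The strain background of the knockout, the animals' age, the time after surgery, the dose, and whether replicates are separate animals are not stated in the labels. The p-values therefore measure how much these arrays vary, which may be no more than technical.

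The deposited intensities had array medians from 581.4 to 660.3. The probe set of Ccl3 itself ran against the labels, with 727 to 812 on the 4 arrays labelled Ccl3-/- and 159 to 386.5 on the 4 wild-type arrays. Which part of the gene was deleted is not stated, so this probe set may check nothing. Every genotype direction below therefore rests on the labels. The tissue carried its defining neuronal markers on every array, with Omp, the olfactory marker protein, between 4251 and 21779. None of the 8150 probe sets tested passed an adjusted p of 0.05 (limma, Benjamini-Hochberg) in any of the 7 comparisons. In RNA of a whole tissue, fewer cells of a type and less RNA per cell cannot be told apart.

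The transcription starts of a few members, taken from those where a tract was found, are printed to show what a TOP tract looks like. The RefSeq promoter table (build GRCm38.p6) held starts of 27 of the 34 genes. A C followed by at least 4 pyrimidines, beginning within 3 bases of an annotated start on the gene's own strand, was found at a start of 9 of those 27 genes (33.3%), against 3651 of all 27025 genes in the table (13.5%). The letters CTTTCC occurred within 20 bases of a start, on the gene's strand, in 6 of the 27 (22.2%) and in 2.3% of all genes. The same search for CTTTTT found 0 of the 27 and 1.42% of all genes. These counts describe the annotated starts, which can lie some bases from the starts used in this tissue. Each line below gives 30 bases, 15 before the annotated start and 15 from it onwards, with the pyrimidine tract in capitals.
Rps10 (chr17:27635230-27635259, minus strand): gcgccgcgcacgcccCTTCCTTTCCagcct
Rps18 (chr17:33955651-33955680, minus strand): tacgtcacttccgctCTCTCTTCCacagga
Rps27 (chr3:90213634-90213663, minus strand): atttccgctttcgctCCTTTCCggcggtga
Rpl7a (chr2:26910792-26910821, plus strand): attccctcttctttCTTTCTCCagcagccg
Rps24 (chr14:24490663-24490692, plus strand): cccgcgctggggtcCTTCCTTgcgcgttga
Rpl38 (chr11:114668565-114668594, plus strand): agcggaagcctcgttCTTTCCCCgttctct
Of these 6 genes, 5 were measured above the filter. The sixth, Rpl38, whose loss of function causes skeletal defects in mice, was not, and its values are given further on.

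Most measured ribosomal protein genes were bright on every array. Of the 25 tested, 23 exceeded the filter on all 8 arrays, and 18 had a mean intensity above 10000, with means from 11919 to 89229. The other 7 had means from 414 to 3649. Intensities of different probe sets depend on the probes and are not compared with each other. Rpl41, which encodes a very short basic peptide of the large subunit, lay between 77647 and 112837. Rplp0, the base of the stalk that recruits elongation factors, had 60093 and 48012 on the wild-type carrier arrays, 42363 and 77056 on the carrier arrays labelled Ccl3-/-, 42405 and 48490 on the wild-type CCL3 arrays and 45547 and 45931 on the CCL3 arrays labelled Ccl3-/-. Its highest array was carrier replicate 2 labelled Ccl3-/-, its lowest was the other carrier array with that label, and neither label separated from the other after carrier. Rps28, Rps18, Rps24 and Rps10, all of the small subunit, had means of 57440, 43722, 41936 and 38853, and Rps24 and Rps10 are mutated in Diamond-Blackfan anaemia in humans. The coefficient of variation over the 8 arrays ran from 12.5% (Rps24) to 52.0% (Rps19) among the 18 bright genes. The probe set read for Rps24 is annotated to the same sequence as that of Rpl7, so its values may not be those of Rps24.

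The remaining 9 genes were dim and were not tested. Their means ran from 49.9 (Rps27l, a paralog of Rps27) to 272 (Rpl39l, a paralog of Rpl39 best known from testis), and the others were Rpl32, Rpl35a, Rpl38, Rpl39, Rps14, Rps15 and Rps20. In 7 of the 9 no array exceeded the filter, and in 2 a single array did. Rpl35a reached 629 and Rpl39l reached 552, both on wild-type carrier replicate 2, which was the highest array for 5 of the 9. Rpl38 had a mean of 161. No level of an mRNA is read from these dim probe sets.

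The median of these genes lay furthest from its mean on a pair of carrier arrays with opposite genotype labels. Each gene was set against its own mean over the 8 arrays on the log2 scale, after adding 102.3 to each intensity. The median deviation of the 25 genes was -0.32 on wild-type carrier replicate 1 and 0.39 on carrier replicate 2 labelled Ccl3-/-. On the other 6 arrays it lay between -0.10 and 0.13. The medians of all tested probe sets lay between -0.03 and 0.04 on all 8 arrays. Carrier replicate 2 labelled Ccl3-/- held the highest value of 16 of the 25 genes, against 15.6% of all tested probe sets, and of 14 of the 18 bright ones. Wild-type carrier replicate 1 held the lowest value of 14 of the 25, against 22.9% of all tested probe sets, and of 11 of the 18 bright ones.

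**Figure D1:**
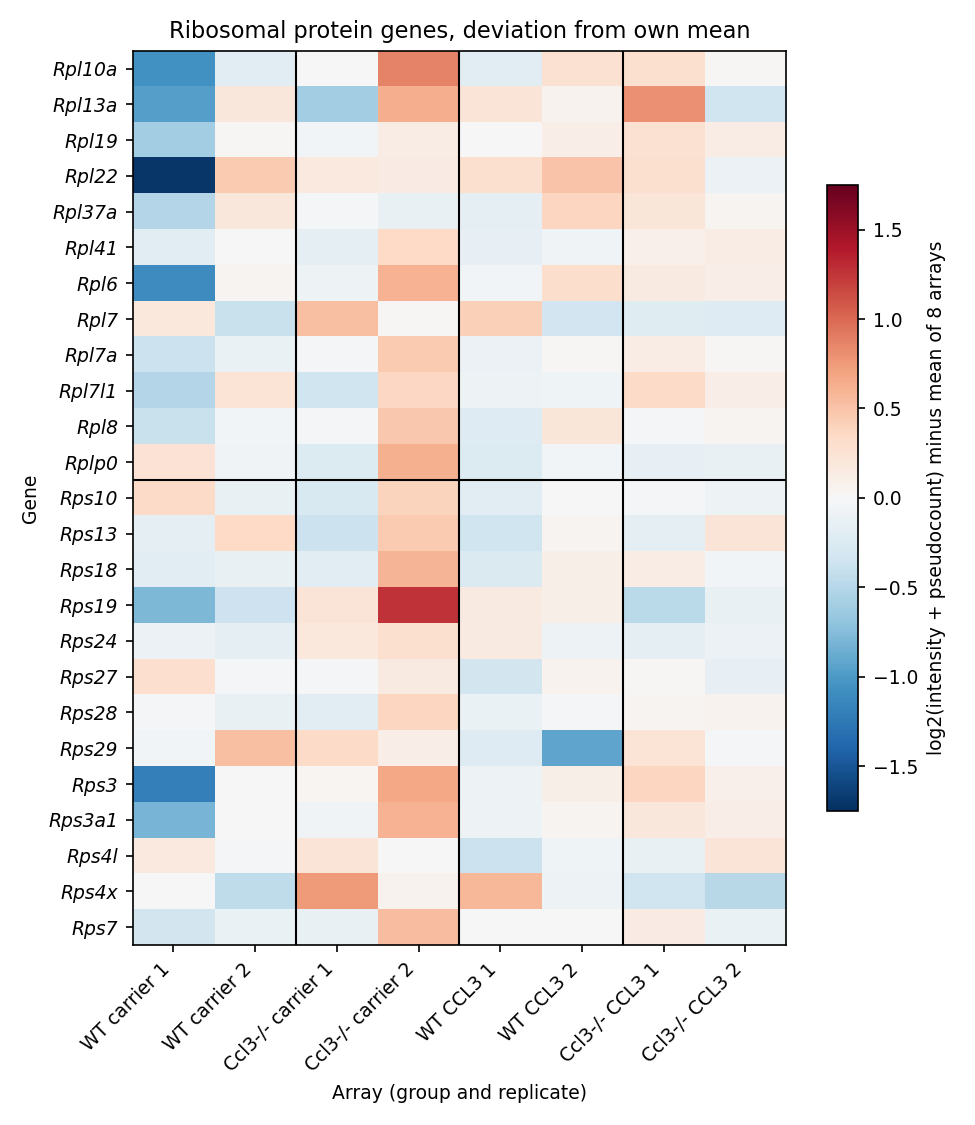
Deviation of each of the 25 tested genes (rows, large subunit above, small subunit below) from its own mean over the 8 arrays, in log2 units, on each array (columns, by labelled group and replicate). Red is above and blue below the gene's mean. The first column is mostly blue (median -0.32) and the fourth mostly red (median 0.39).

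The same arrays also stood apart in measures that have no ribosomal protein gene in them. The ratio of the 3' to the 5' control probe set of Gapdh, which grows as RNA is degraded or incompletely copied, was 2.59 on wild-type carrier replicate 1 and 0.755 to 1.31 on the other 7 arrays, with the 0.755 on carrier replicate 2 labelled Ccl3-/-. The same ratio for beta actin was 1.58 on wild-type carrier replicate 1, the lowest of the 8, and up to 2.17 elsewhere. Cell cycle markers (14 of 15 listed genes on the array) summed to 30096 on carrier replicate 2 labelled Ccl3-/-, to 11271 on wild-type carrier replicate 1, and to 13259 to 19293 on the other 6. On the same carrier replicate 2, neutrophil markers (9 of 9 on the array) summed to 175585 against 87285 to 122440 elsewhere, and olfactory neuron markers (7 of 11) to 31972 against 47481 to 67570. Of the latter, Adcy3, Ebf2, Gap43, Tubb3 and Ncam1 were lowest there. Omp was lowest on wild-type carrier replicate 1 (4251 against 8657) and Cnga2 on wild-type carrier replicate 2 (2600 against 3845). Sustentacular cell markers (4 of 7) summed to 83296 on wild-type carrier replicate 1 and to 112389 to 142958 elsewhere. No marker on the array was at 0 on any array. The part of these differences in the ribosomal protein values was not tested.

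**Figure D2:**
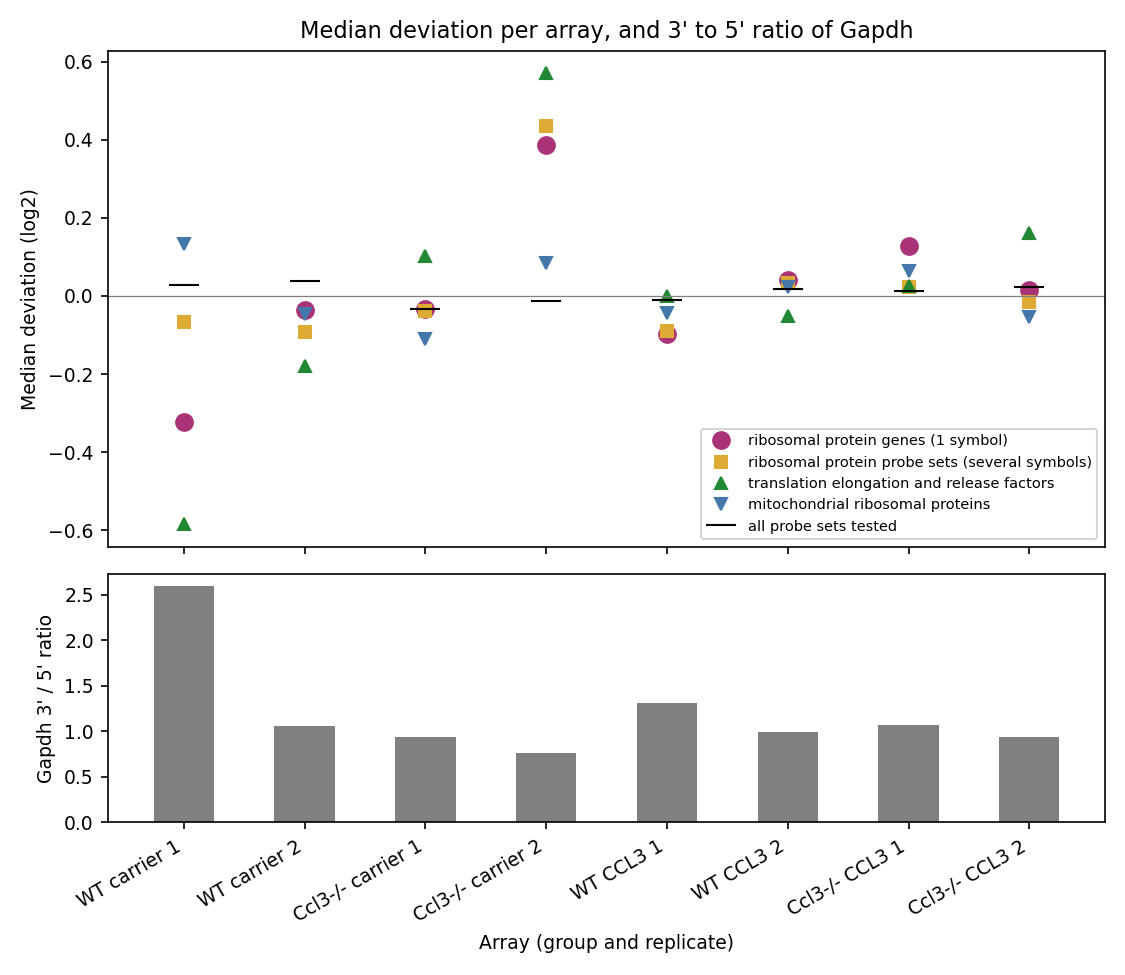
Upper plot, median log2 deviation per array of the ribosomal protein genes, of ribosomal protein probe sets with several symbols, of translation elongation and release factors, of mitochondrial ribosomal proteins and of all tested probe sets; lower plot, 3' to 5' intensity ratio of the Gapdh control probe sets on the same arrays. The ribosomal protein genes with 1 symbol lie lowest on wild-type carrier replicate 1, where the Gapdh ratio is 2.59, and highest on carrier replicate 2 labelled Ccl3-/-, where it is 0.755.

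Replicates given carrier differed more than replicates given CCL3. The median absolute log2 difference of the 25 genes between the replicates was 0.47 for wild type and 0.64 for the label Ccl3-/- after carrier, and 0.22 and 0.17 after CCL3. Over all tested probe sets these medians were 0.43, 0.33, 0.27 and 0.22. On the deposited intensities 4 of the 25 genes differed by more than 2-fold between the wild-type carrier replicates, 3 between the carrier replicates labelled Ccl3-/-, 0 between the wild-type CCL3 replicates and 1 between the CCL3 replicates labelled Ccl3-/-. After adding 102.3 the 3 became 2.

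The first genotype comparison sets the carrier arrays labelled Ccl3-/- against the wild-type carrier arrays. On the log2 scale 21 of the 25 genes had a positive difference, labelled Ccl3-/- minus wild type, and the median was 0.37, against -0.03 over all tested probe sets, of which 47.9% were positive. At an unadjusted p under 0.05, 3 genes were higher, against 5.03% of all probe sets, and 0 were lower, against 6.4% (either direction 11.4%). None had an adjusted p under 0.05 in limma, the smallest being 0.363. The groups did not overlap, with the label Ccl3-/- higher, for 7 of the 25 genes, against 15.6% of all probe sets. No gene was lower without overlap, against 22.9%.

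Rps19, a small-subunit protein needed to mature 18S ribosomal RNA and the gene most often mutated in Diamond-Blackfan anaemia in humans, had 10820 and 14573 on the wild-type carrier arrays and 21897 and 45046 on the carrier arrays labelled Ccl3-/-. It had 20850 and 20118 on the wild-type CCL3 arrays and 13471 and 17128 on the CCL3 arrays labelled Ccl3-/-. The carrier groups did not overlap, and carrier replicate 2 labelled Ccl3-/- was the highest of the 8 arrays. The carrier difference was 1.32 ± 0.34 (SE, 2 arrays per group) on the log2 scale, with an adjusted p of 0.363 in limma.

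Rpl10a, which lies at the mobile L1 stalk where tRNA leaves the ribosome, had 10045 and 18241 against 21029 and 38358 on the carrier arrays, wild type first, a difference of 1.06 ± 0.36 (SE) with an adjusted p of 0.394 in limma. After CCL3 it had 18307 and 25196 in wild type and 25528 and 21222 with the label Ccl3-/-. The carrier groups did not overlap but the CCL3 groups did. Its second probe set had 6268 and 5817 against 6549 and 15692 on the carrier arrays, a difference of 0.74 ± 0.36 (SE). On that probe set carrier replicate 2 labelled Ccl3-/- was again the highest of the 8 arrays, while wild-type carrier replicate 1 was not the lowest.

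Rps3, a small-subunit protein at the mRNA entry channel, had 11932 and 27680 on the wild-type carrier arrays and 28077 and 43925 on the carrier arrays labelled Ccl3-/-. Its CCL3 arrays had 25784 and 29575 in wild type and 35596 and 29296 with the label Ccl3-/-. Wild-type carrier replicate 2 and carrier replicate 1 labelled Ccl3-/- were almost level, so the groups were separated by the other carrier arrays. The difference was 0.95 ± 0.38 (SE), adjusted p = 0.412 in limma.

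**Figure D3:**
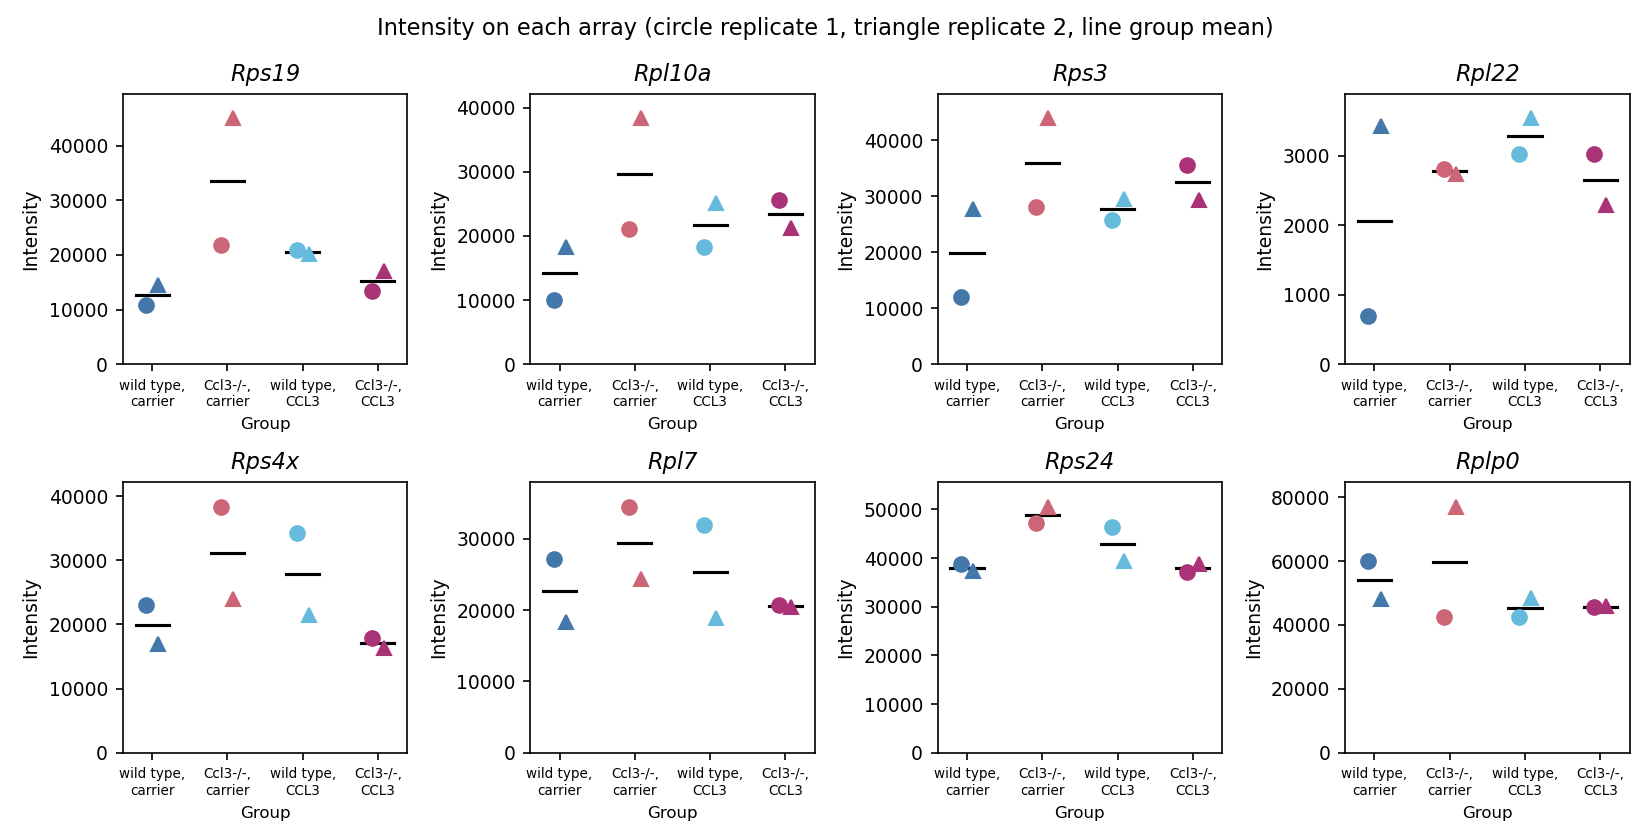
Deposited intensity on a linear axis from 0 of 8 ribosomal protein genes in the 4 labelled groups; circles are replicate 1, triangles replicate 2 and lines the mean of the 2 arrays. Rps19, Rpl10a and Rps3 are highest on carrier replicate 2 labelled Ccl3-/-, Rpl22 has a single low array, and Rps4x and Rpl7 are high on replicate 1 of that carrier group and of the wild-type CCL3 group.

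The size of the carrier difference varied with single arrays, its median running from 0.14 to 0.50 with 1 array left out in turn. Leaving out only carrier replicate 2 labelled Ccl3-/- gave a median of 0.14, leaving out only wild-type carrier replicate 1 gave 0.22, and leaving out only the replicate beside each gave 0.50 and 0.43. Quantile normalization of all 8 arrays gave 0.19. Leaving out wild-type carrier replicate 1 and carrier replicate 2 labelled Ccl3-/- together gave a median of -0.06, against -0.08 over all tested probe sets. These arrays were chosen after seeing that the members were lowest and highest on them. A smaller carrier difference without either or both of them therefore follows from the choice. The same caution holds wherever values without 1 or both of these arrays are given below. Without both arrays the difference of Rps3 was 0.02, that of Rpl10a 0.20 and that of Rps19 0.58. The lower genes with the smallest p were Rps27 and Rps10, at -0.06 ± 0.26 and -0.04 ± 0.27 (SE). Both are among the genes whose starts are printed above, but so are Rpl7a, Rps18 and Rps24, which were higher, at 0.46, 0.37 and 0.36. High values were read on wild-type carrier replicate 1 for Rps27, 4471, and for Rps10, 48496. Rps13, another small-subunit protein, was at -0.05 ± 0.39 (SE).

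**Figure D4:**
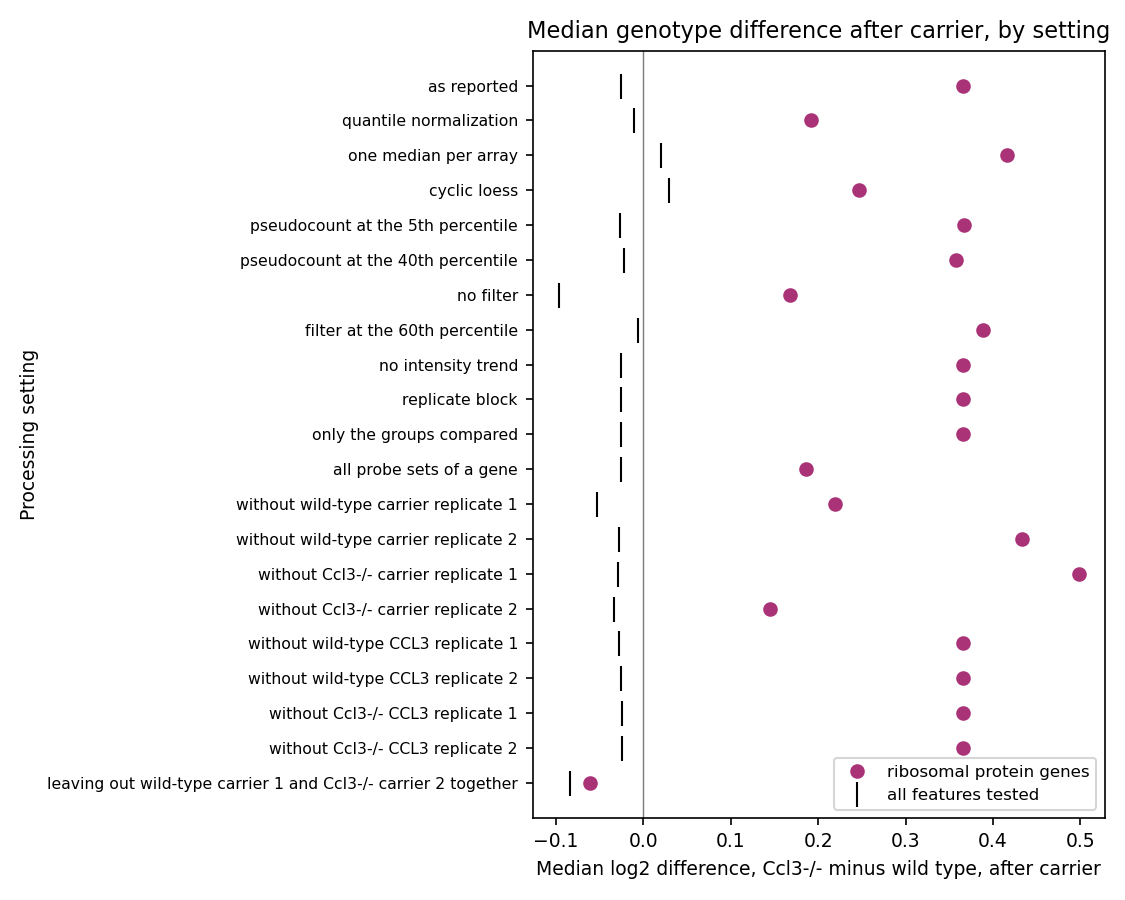
Median log2 difference, labelled Ccl3-/- minus wild type after carrier, of the tested ribosomal protein genes (points) and of all tested features (bars) under each processing setting. The value as reported is 0.37, and the lowest is -0.06, with the carrier array on which these genes were lowest in wild type and that on which they were highest with the label Ccl3-/- left out together.

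After CCL3 the genotype difference of these genes was small. The median was 0.08, against 0.02 over all tested probe sets, with 20 of 25 genes positive against 52.8% of all probe sets. At an unadjusted p under 0.05 there were 0 genes, against 1.48% of all probe sets, and the smallest adjusted p in limma was 1. The groups did not overlap for 6 genes with the label Ccl3-/- higher, against 16.5% of all probe sets, and for 4 with it lower, against 12.9%. Rps29, a small zinc-binding protein of the small subunit, was at 0.69 ± 0.35 (SE), Rps4l at 0.27 ± 0.26 (SE) and Rpl41 at 0.21 ± 0.22 (SE). Rps4x, the X-linked gene of a small-subunit protein, was at -0.66 ± 0.31 (SE) and Rps19 at -0.43 ± 0.34 (SE). The median of all 25 became -0.02 when wild-type CCL3 replicate 1 was left out and 0.20 when wild-type CCL3 replicate 2 was.

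**Figure D5:**
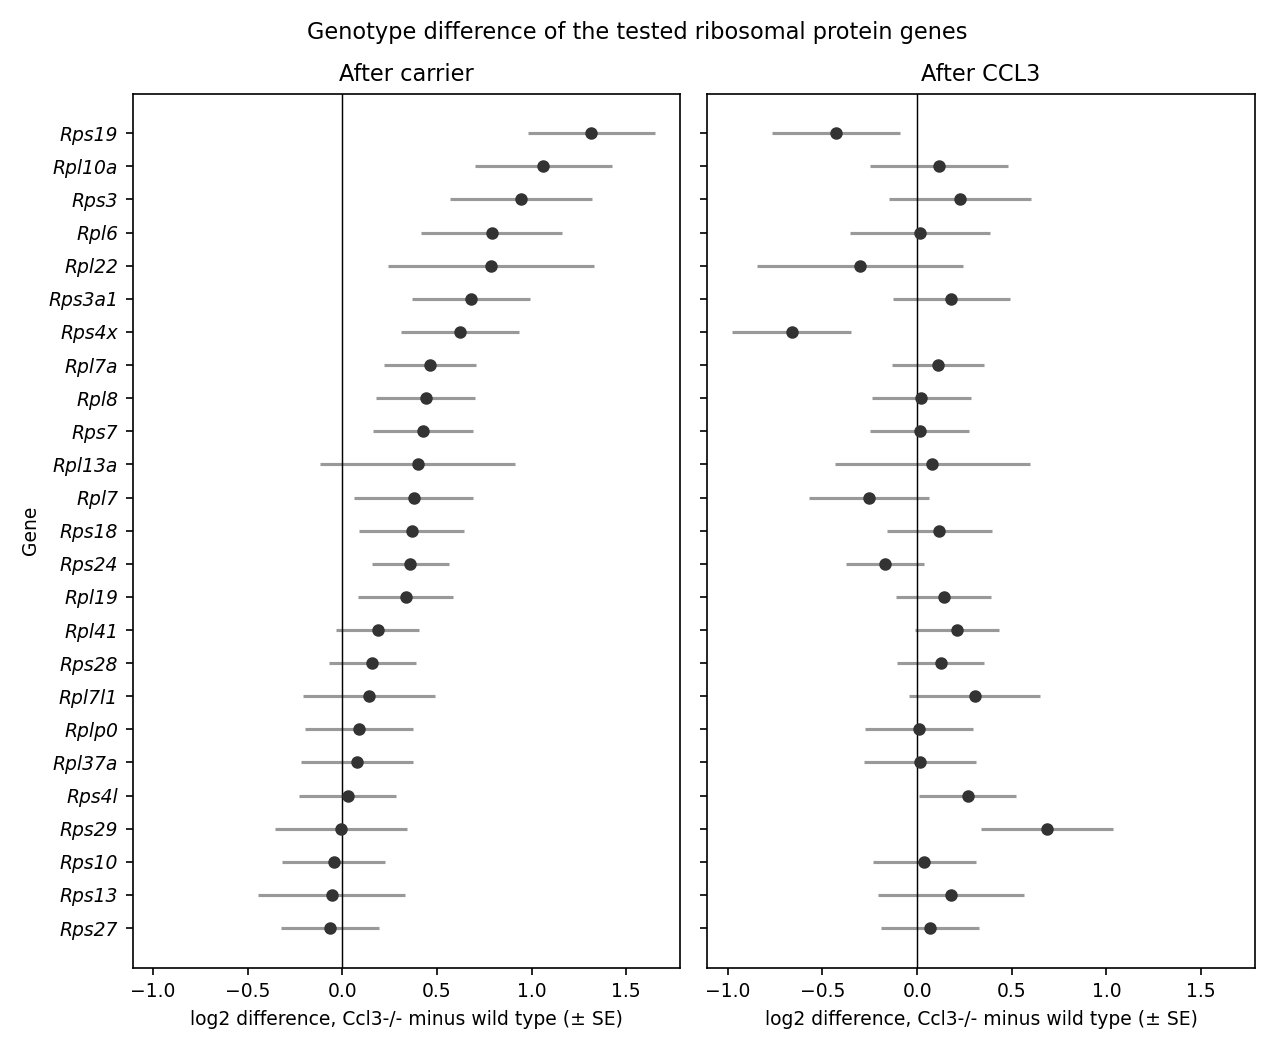
Log2 difference of each tested gene, labelled Ccl3-/- minus wild type, after carrier (left) and after CCL3 (right), with bars of 1 SE from limma; genes are ordered by the carrier difference. After carrier 21 of 25 points lie above 0 and reach 1.32 (Rps19), while after CCL3 they lie between -0.66 (Rps4x) and 0.69 (Rps29).

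The first injection comparison sets CCL3 against carrier on the arrays labelled wild type. The median difference, CCL3 minus carrier, was 0.21 against -0.02 over all tested probe sets, and 18 of 25 genes were positive against 48.2%. At an unadjusted p under 0.05, 1 gene was lower (2.32% of all probe sets) and 0 were higher (1.98%). The lower gene was Rps29, with 456 and 731 after carrier and 391 and 203 after CCL3. These groups did not overlap, all values lay near the filter, and the difference was -0.81 ± 0.35 (SE), adjusted p = 0.911 in limma (0.553 to 0.999 over 19 alternatives). Its unadjusted p stayed under 0.05 in 7 of those 19. Under quantile normalization and under one median per array Rps29 was no longer at that p, and the single gene at that p was a higher one. The groups did not overlap for 5 genes with CCL3 higher (12% of all probe sets) and for 2 with it lower (18.1%). Rps19 was at 0.70 ± 0.34 (SE) and Rpl10a at 0.66 ± 0.36 (SE). The median was 0.03 without wild-type carrier replicate 1.

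Rpl22, a large-subunit protein with a close paralog, had the largest spread between replicates among the 25. Its wild-type carrier arrays read 688 and 3426, and the other 6 arrays lay between 2293 and 3542. A single array, wild-type carrier replicate 1, was thus low, and the replicate beside it was the second highest. The difference after CCL3 in wild type was 1.01 ± 0.54 (SE), adjusted p = 0.911 in limma. Without wild-type carrier replicate 2 the low array stood alone for its group, and Rpl22 then had adjusted p-values in limma of 0.0240 for the carrier genotype difference (1.87) and 0.0233 for CCL3 in wild type (2.10). The second probe set of Rpl22 read 871 and 1323 on the wild-type carrier arrays, with no low array there, and its difference after CCL3 in wild type was -0.74 ± 0.39 (SE).

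In mice labelled Ccl3-/- the direction of the median was the opposite one. The median difference, CCL3 minus carrier, was -0.12 against 0.03 over all tested probe sets, and 5 of 25 genes were positive against 54% of all probe sets. It compares with the same carrier arrays as the genotype comparison after carrier, and without carrier replicate 2 labelled Ccl3-/- it was 0.15. At an unadjusted p under 0.05, 2 genes were lower, against 2.12% of all probe sets, and 0 were higher, against 2.77%. They were Rps19, at -1.04 ± 0.34 (SE), and Rps4x, at -0.82 ± 0.31 (SE), with adjusted p-values of 0.830 and 0.940 in limma. The groups did not overlap for 4 genes with CCL3 lower (16% of all probe sets) and for 2 with CCL3 higher (22.9%). Without the 2 carrier arrays that stand apart, Rps19 was at -0.52 and Rps4x at -1.16. Rpl37a and Rpl19, of the large subunit, were at 0.21 ± 0.30 and 0.16 ± 0.25 (SE).

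Whether the genotypes responded differently to the injection was tested by the interaction term. Its median was -0.32, against 0.04 over all tested probe sets, with 7 of 25 genes positive against 52.7%. Rps19, at -1.74 ± 0.48 (SE), and Rps4x, at -1.28 ± 0.44 (SE), were the 2 genes with an unadjusted p under 0.05 in the lower direction, against 1.87% of all probe sets, and 0 were in the higher direction, against 3.19%. Both had an adjusted p of 0.908 in limma. Without both carrier arrays that stand apart the median was 0.17, Rps19 was at -1.01 and Rps4x at -1.84.

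Rps4x and Rpl7 followed another order of arrays than most members. Rps4x had 22960 and 16881 on the wild-type carrier arrays, 38381 and 23999 on the carrier arrays labelled Ccl3-/-, 34241 and 21512 on the wild-type CCL3 arrays and 17924 and 16337 on the CCL3 arrays labelled Ccl3-/-. Rpl7, of the large subunit, had 27227 and 18272, 34523 and 24355, 31896 and 18863, and 20701 and 20437 in the same order. In both genes carrier replicate 1 labelled Ccl3-/- and wild-type CCL3 replicate 1 were the highest arrays, and carrier replicate 2 labelled Ccl3-/- was not. Replicate 1 was above replicate 2 in every group for both genes.

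The probe set read for Rps24 had the smallest spread between replicates of the 25. It had 38734 and 37391 in wild type and 47256 and 50575 with the label Ccl3-/- after carrier, and 46300 and 39339 in wild type and 37039 and 38855 with the label Ccl3-/- after CCL3. The label Ccl3-/- was the higher one after carrier and the lower one after CCL3, each time without overlap. The brightest probe sets of Rps24 and Rpl7 carry the same sequence accession in the platform annotation, so their values may not be independent. Which of these genes the probe set read for Rps24 measures was not tested. The differences of Rps24 were 0.36 ± 0.20 (SE) after carrier and -0.17 ± 0.20 (SE) after CCL3, and its interaction was -0.53 ± 0.29 (SE), adjusted p = 0.908 in limma. A dimmer tested probe set of Rps24, annotated to another sequence and with a mean of 380, did not run the same way. It was at -0.43 ± 0.37 (SE) after carrier, -0.002 ± 0.37 (SE) after CCL3 and 0.42 ± 0.53 (SE) for the interaction.

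Averaged over both injections, the genotype difference had a median of 0.22, against -0.01 over all tested probe sets, and 23 of 25 genes were positive against 48.4%. At an unadjusted p under 0.05, 1 gene, Rpl10a, was higher at 0.59 ± 0.26 (SE), against 3.03% of all probe sets, with an adjusted p of 0.808 in limma, and 0 were lower, against 2.9%. Rps3 was at 0.59 ± 0.27 (SE) and Rps3a1, of the small subunit, at 0.43 ± 0.22 (SE). For 0 of the 25 genes were all 4 arrays of one label above all 4 of the other, against 1.31% of all probe sets with the label Ccl3-/- higher and 1.88% with it lower. Without the 2 carrier arrays together the median was 0.03. Averaged over both genotypes, CCL3 minus carrier had a median of 0.00, against 0.01 over all tested probe sets, with 13 genes positive, against 51.6% of all probe sets, and 12 negative. No gene had all 4 CCL3 arrays above (1.58% of all probe sets) or below (1.14%) all 4 carrier arrays. At an unadjusted p under 0.05 there were 0 genes, against 4.53% of all probe sets, and the smallest adjusted p in limma was 0.969.

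Where a gene had several probe sets, 10 of the 34 genes, they did not always run the same way. The bright probe set of Rpl19 was at 0.34 ± 0.25 (SE) for the carrier genotype difference and a second, with a mean of 739, at -1.24 ± 0.37 (SE), unadjusted p = 0.00802 in limma. For the interaction the bright probe set of Rps4x was at -1.28 and a dimmer tested one at 0.47 ± 0.69 (SE). A further 39 probe sets had several symbols with a ribosomal protein among them and were not assigned to a gene, of which 34 were tested. Carrier replicate 2 labelled Ccl3-/- was highest in 22 and wild-type carrier replicate 1 lowest in 14 of these 34. Their median deviation was 0.44 on the former array and -0.07 on the latter, which lay within the -0.09 to 0.03 of the other 6 arrays. Their median carrier genotype difference was 0.36, with 27 positive and 7 negative, and their median difference after CCL3 was 0.03. Rpsa, a small-subunit protein also known as the laminin receptor, which the symbol rule does not catch, had 6254 and 9797 on the wild-type carrier arrays and 8215 and 17615 on the carrier arrays labelled Ccl3-/-, at 0.61 ± 0.36 (SE), adjusted p = 0.518 in limma. Its highest and lowest arrays were the same as for most members.

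Among other genes of protein synthesis, the list of elongation and release factors had the largest median carrier genotype difference of the 6 lists compared. That list also holds genes that are neither elongation nor release factors, among them Btf3, Naca, Tpt1 and Eef2k. Of 9 tested, 8 were positive, with a median of 0.75, and 5 had an unadjusted p under 0.05, all higher (5.03% of all probe sets). Their median deviation was -0.58 on wild-type carrier replicate 1 and 0.57 on carrier replicate 2 labelled Ccl3-/-, and between -0.18 and 0.16 on the other 6 arrays, and the part of these arrays in the difference was not tested. Btf3, a subunit of the complex that binds emerging polypeptides, was at 0.94 ± 0.29 (SE), and Eef1d, an exchange factor for elongation factor 1, at 1.17 ± 0.38 (SE). Over all probe sets 5.03% were higher and 6.4% lower at that p, and the counts of the next lists are read against these shares. The initiation factor list also holds regulators such as Eif4ebp1 and the Eif2ak kinases, and the aminoacyl tRNA synthetase list the partner proteins Aimp1 and Aimp2. The 34 tested genes of the initiation factor list had a median of 0.19, with 2 higher and 0 lower, a share near the background. The 21 of the synthetase list had a median of 0.29, with 3 higher and 0 lower, and the 41 ribosome biogenesis factors 0.09, with 5 higher and 1 lower. On wild-type carrier replicate 1 and carrier replicate 2 labelled Ccl3-/- the median deviations were -0.08 and 0.07 for initiation factors, -0.23 and 0.21 for synthetases and -0.18 and 0.29 for biogenesis factors. Npm1, a nucleolar chaperone of ribosome assembly, was among the higher ones at 1.03 ± 0.33 (SE).

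The 58 mitochondrial ribosomal proteins, which belong to a separate ribosome, had a median of -0.06 for the same comparison, with 0 higher (5.03% of all probe sets) and 2 lower (6.4%), a share below the background. The 2 were Mrps18a at -1.03 ± 0.25 (SE) and Mrps15 at -0.60 ± 0.25 (SE). The list of p53 targets, which can respond when ribosome assembly is disturbed, also names Trp53 itself. Its 8 tested genes had a median of 0.18 with none at that p in either direction. None of the genes of these lists had an adjusted p under 0.05 in limma. After CCL3 the medians of the genotype difference were 0.12 for elongation and release factors, -0.08 for initiation factors, -0.05 for biogenesis factors, 0.02 for mitochondrial ribosomal proteins, 0.03 for the synthetases and -0.13 for the p53 targets.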

How the data were processed

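Total RNA of olfactory mucosa was measured on single-colour arrays, 2 in each of 4 groups taken from the sample titles. The deposited values are linear intensity values, 1 per probe set and array, in the form the authors gave them. Scanner software and scaling method: not given in the sources used here. Means trimmed by 2% at each end were equal within 0.00834%, so nothing was normalized again. Leaving out 66 control probe sets, limma 3.58.1 (R 4.3.3) fitted log2(intensity + 102.3), the 20th percentile of the table, for 8150 probe sets with at least 2 arrays above 362.7, the 40th percentile. All groups shared 4 residual degrees of freedom. Here eBayes used an intensity trend, and p-values were adjusted by Benjamini-Hochberg over all probe sets tested. Adding a constant understates differences of dim genes. Each gene was read from its brightest probe set. Of all probe sets, 10855 had 1 symbol, 396 several and 1237 none. All 34 symbols matched the RefSeq gene table.

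The members and lists were chosen with earlier results of these data known. Named genes were the 6 with the highest and the 6 with the lowest mean, the 3 smallest p in each direction of each comparison, members with a known special role, those whose probe sets disagree, the extremes of spread, and 2 genes per pathway list. The method was run on simulated data with independent noise for each probe set and array. Those data hold no shift shared by many genes of an array, so the run says nothing about such shifts. The labels name no slide or scan, so no batch could be examined. The labels do not say whether replicate numbers pair arrays. Over all tested probe sets, the difference of replicate 1 minus replicate 2 correlated between groups at -0.158 to 0.178. Such a value over all probe sets cannot exclude a pairing that affects part of the genes. Alternatives were other normalizations, pseudocounts, filters, no trend, a replicate block, only the groups compared, all probe sets of a gene, and arrays left out.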

Additional observations from a re-analysis of the deposited data

Results flagged for a closer look

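In 3 genes the compared groups did not overlap, and the direction was opposite in the 2 genotypes or after the 2 injections. For Rps19, both CCL3 arrays lay above both carrier arrays in wild type and below both with the label Ccl3-/-. The label Ccl3-/- was above wild type after carrier and below it after CCL3, with an interaction of -1.74 (log2). Rps24 did the same in both comparisons, with an interaction of -0.53, and Rps4x did so for the genotype difference after the 2 injections, with an interaction of -1.28. The interaction was tested by limma, and the adjusted p was 0.908 for all 3. Such opposite separation occurred in 6.77% of all tested probe sets for CCL3 in the 2 genotypes (2 of 25 ribosomal protein genes) and in 5.03% for genotype after the 2 injections (3 of 25). The values of the 3 genes are those of their brightest probe sets. That of Rps24 is annotated to the same sequence as that of Rpl7, and which gene it measures was not tested. A dimmer tested probe set had an interaction of the opposite sign for Rps24, 0.42 ± 0.53 (SE), and for Rps4x, 0.47 ± 0.69 (SE). The part of the 3' to 5' ratio and of the marker sums, which also differ between these arrays, was not tested.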

How the results depend on the processing

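Over 20 alternatives, the count of ribosomal protein genes with an adjusted p under 0.05 in limma was 0 in all but 1: without wild-type carrier replicate 2 it was 2, both for Rpl22. With 1 array left out in turn (a group left with 1 array was taken to vary as the rest do), that count ran from 0 to 2. The median log2 differences ran from 0.14 to 0.50 for genotype after carrier, -0.02 to 0.20 for genotype after CCL3, 0.03 to 0.32 for CCL3 in wild type, -0.41 to 0.15 for CCL3 with the label Ccl3-/-, -0.58 to -0.10 for the interaction, 0.11 to 0.29 for genotype over both injections and -0.12 to 0.14 for CCL3 over both genotypes. The counts at an unadjusted p under 0.05 ran, in the same order, from 2 to 10, 0 to 1, 0 to 7, 0 to 3, 1 to 6, 0 to 8 and 0 to 4, while the share of all probe sets at that p ran from 7.97% to 20.2%, 0.865% to 2.4%, 2.64% to 17.2%, 1.61% to 7.79%, 1.79% to 12.9%, 2.72% to 14.6% and 2.16% to 15.9%. The counts of 10 and 8 came without carrier replicate 1 labelled Ccl3-/- (11.6% and 8.36% of all probe sets), and those of 7, 6 and 4 without wild-type carrier replicate 2 (17.2%, 12.9% and 15.9%).

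Leaving out wild-type carrier replicate 1 and carrier replicate 2 labelled Ccl3-/- together, added after seeing the data, gave medians of -0.060 for genotype after carrier, 0.15 for CCL3 with the label Ccl3-/-, 0.17 for the interaction and 0.029 for genotype over both injections, and counts (with the share of all probe sets in brackets from here on) of 2 for genotype after CCL3 (3.69%), 2 for CCL3 in wild type (7.99%), 0 for genotype over both (10.3%) and 1 for CCL3 over both (7.9%). Without the filter the medians were 0.17 for genotype after carrier and -0.11 for the interaction, over more genes, and the counts were 2 for CCL3 in wild type (5.88%), 0 for genotype over both (5.64%) and 2 for CCL3 over both (5.2%). Counts changed further under quantile normalization (1 for CCL3 with the label Ccl3-/- [4.75%], 0 for genotype over both [6.01%]), one median per array (5 for genotype after carrier [10.9%], 2 for genotype over both [5.99%]), cyclic loess (0 for CCL3 in wild type [3.96%], 0 for genotype over both [5.8%]), the filter at the 60th percentile (0 for CCL3 in wild type [3.16%]), no trend (0 for genotype over both [5.83%]), only the groups compared (2 for genotype after CCL3 [3.62%]) and all probe sets of a gene (1 for the interaction [4.99%], 0 for genotype over both [5.49%], 1 for CCL3 over both [4.47%]). With the replicate number as a block the counts were 6 for genotype after carrier (11.7%), 1 for genotype after CCL3 (1.62%), 2 for CCL3 in wild type (4.52%) and 4 for genotype over both (6.33%), and the block changed no adjusted call of these genes. The count of 1 for CCL3 in wild type hides a change of direction: the gene was lower as reported and a higher one under quantile normalization, one median per array, only the groups compared and without either carrier array labelled Ccl3-/-. The cause of these changes was not tested. Of 294 values compared, 231 stayed within the spread between replicates or within 1.5 times the count. The number of arrays limits the precision, and dim probe sets have understated differences.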
